A study of Mus musculus with 12 samples.

Results

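The genes described here are the class I antigen presentation genes H2-D1, H2-K1, B2m and Psmb8 of the mouse. They were found by looking up the NCBI gene number held in each probe identifier in a RefSeq gene table. H2-D1, H2-K1 and Psmb8 were found by that number, and B2m by the RefSeq accession that its probe identifier holds. Each gene had 1 probe, so the 4 genes stand on 4 of the 46083 probes for mouse transcripts, and all 4 probes passed the filter on dim signals. In all, 8106 genes had a named probe.

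Total RNA of intestinal tissue from Apc-min mice, which develop intestinal adenomas through a mutation of the tumour suppressor gene Apc, was hybridised to 12 Illumina bead arrays, 2 in each of 6 groups. Normal tissue and tumour tissue came from mice with wild type Notch signalling, from mice with Vil-Cre;Mib1f/f (called Notch-inactivated) and from mice with Vil-Cre;RosaN1+/RN1 (called Notch-activated), and every mouse carried the Apc mutation. Vil-Cre drives recombination in the gut epithelium, so other cells of the tissue kept their alleles, and Mib1 encodes the E3 ligase without which Notch ligands cannot activate their receptor. The wild type mice are not described as carrying Cre. The labels give neither the age of the mice nor the segment of gut, and their strain entry reads only as Apc-min for every sample, with no H2 haplotype. They do not say which arrays came from separate animals, so the p-values reflect array to array spread within a group, part of which may be technical.

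MHC class I molecules present short peptides from inside the cell to CD8 T cells. A polymorphic heavy chain, such as the classical chains encoded by H2-K1 and H2-D1, pairs with the invariant light chain beta-2 microglobulin, encoded by B2m. Psmb8 encodes a catalytic subunit of the immunoproteasome, the interferon-induced form of the proteasome that trims proteins to peptides suited to class I. The heavy chain genes lie in the H2 complex on mouse chromosome 17, where neighbouring genes are near-identical copies and inbred strains carry different alleles, so a probe of this family can read a copy or miss an allele. H2-D1 and H2-K1 were treated as uncertain in that sense throughout. The RefSeq table lists H2-K1 among the synonyms of H2-D1 and H2-D1 among those of H2-K1.

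The likeness of the H2-D1 and H2-K1 genes shows in their promoters, which are printed here because the probes of these near copies gave opposite patterns, beside the promoter of their shared light chain. The windows are the 300 bases around the start of each gene, 5′ to 3′ on its own strand, from RefSeq on GRCm38.p6, an assembly of the C57BL/6J strain. That of H2-D1 is chr17:35262844-35263143 on the plus strand, that of H2-K1 chr17:34000298-34000597 on the minus strand, and that of B2m chr2:122147437-122147736 on the plus strand. Capitals mark matches, on either strand, to the Y box CCAAT, and in B2m also to the core of the interferon-stimulated response element.
H2-D1: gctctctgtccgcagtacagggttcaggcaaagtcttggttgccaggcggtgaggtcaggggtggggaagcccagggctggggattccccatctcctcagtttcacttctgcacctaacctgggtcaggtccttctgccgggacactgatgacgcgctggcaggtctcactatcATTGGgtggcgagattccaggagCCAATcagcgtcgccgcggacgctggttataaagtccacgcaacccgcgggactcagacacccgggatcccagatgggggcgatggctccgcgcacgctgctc
H2-K1: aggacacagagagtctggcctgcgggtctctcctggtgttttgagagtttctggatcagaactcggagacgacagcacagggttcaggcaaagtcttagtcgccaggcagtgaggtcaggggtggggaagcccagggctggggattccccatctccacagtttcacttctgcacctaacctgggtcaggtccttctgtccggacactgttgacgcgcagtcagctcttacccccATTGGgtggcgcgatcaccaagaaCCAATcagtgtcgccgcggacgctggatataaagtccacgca
B2m: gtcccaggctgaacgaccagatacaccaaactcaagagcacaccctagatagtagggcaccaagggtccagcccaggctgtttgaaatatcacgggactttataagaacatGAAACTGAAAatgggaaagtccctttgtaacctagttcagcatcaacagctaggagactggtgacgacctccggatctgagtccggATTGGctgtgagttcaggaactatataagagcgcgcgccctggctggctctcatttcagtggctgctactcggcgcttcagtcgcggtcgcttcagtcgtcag
In a local alignment 206 of 228 aligned positions of the H2-D1 and H2-K1 windows (90.4%) were identical, and the longest stretch without a mismatch was 47 bases. Both windows held 2 Y box matches, B2m held 1 and Psmb8 (chr17:34197945-34198244, plus strand, sequence not shown) held 0, while 37.9% of all 27025 promoters in the table held at least 1. The fixed pattern searched for the response element core was matched in B2m among the 4 genes and in 3.49% of all promoters. Other forms of this element were not searched for. The absence of a match therefore does not show that the H2-D1, H2-K1 or Psmb8 window lacks the element. A gamma-activated site, TTCNNNGAA, was found in Psmb8 among the 4 genes and in 8.47% of all promoters. No match overlapped another in the printed windows. A match is a description of these letters only.

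H2-D1 was read on the 4 Notch-activated arrays and was at or near background on the 8 others. Background was set per array as the 95th percentile of probes for foreign sequences (range over the arrays 5.58 to 5.82, as log2 signal). The log2 signal of H2-D1 was 10.97 and 10.94 in Notch-activated normal tissue and 10.83 and 10.44 in Notch-activated tumours. Wild type mice had 5.26 and 5.20 in normal tissue, against 5.25 and 5.85 in tumours. Notch-inactivated mice had 5.26 and 5.55 in normal tissue, against 5.57 and 5.49 in tumours. Of the 8 arrays without the transgene, 1 lay above its limit, wild type tumour array 2, and none came near the Notch-activated range. The filter asked for at least 2 arrays above the limit, so the H2-D1 probe passed it only through the Notch-activated arrays.

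**Figure D1:**
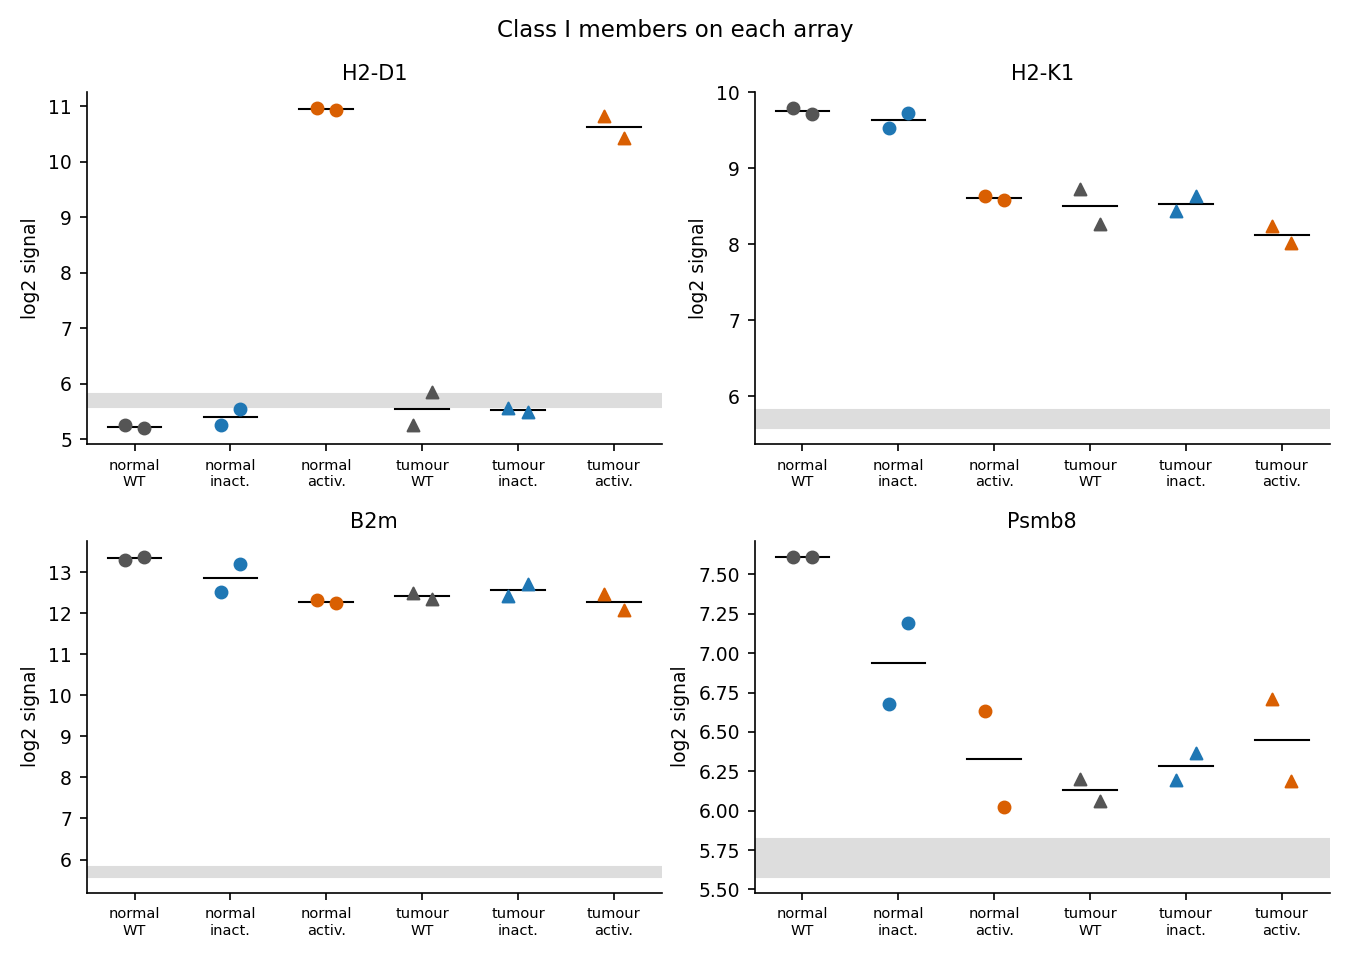
Log2 signal of H2-D1, H2-K1, B2m and Psmb8 on each of the 12 arrays, with circles for normal tissue, triangles for tumours, a line at the mean of 2 arrays and a grey band at the range of the background limits (5.58 to 5.82). H2-D1 sits above 10 on the 4 Notch-activated arrays and at or below 5.85 on the others, while H2-K1, B2m and Psmb8 have their highest group mean in wild type normal tissue.

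Where both arrays of the dimmer group lay at background, the fold has only a lower limit, taken as the bright mean against the mean of the dimmer arrays with each value raised to its background limit. H2-D1 was at least 37.0-fold higher in Notch-activated than in wild type normal tissue (limma, adjusted p = 2.72e-07; measured means 10.96 and 5.23). Against Notch-inactivated mice it was at least 37.6-fold higher in normal tissue (adjusted p = 5.64e-07) and at least 33.0-fold higher in tumours (adjusted p = 6.88e-07). Against wild type tumours, where 1 of 2 arrays was above background, the same bound was at least 29.6-fold (adjusted p = 7.18e-07, measured means 10.64 and 5.55). The probe was kept only through the Notch-activated arrays, where it was high. These adjusted p are therefore not separate from that selection, and the bounds describe the step. Within Notch-activated mice, tumours did not pass the test against normal tissue (-0.32, SE 0.19, 95% interval -0.75 to 0.11, adjusted p = 0.247). The tumour difference of H2-D1 in wild type and Notch-inactivated mice cannot be read, because 3 of the 4 groups involved had no array above the limit.

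The step was compared with that of all 23763 probes kept for testing. In H2-D1 the lowest Notch-activated array lay 4.59 log2 units above the highest of the 8 others, the largest such gap of any probe. The next largest was 2.58, on a probe without a gene name, and the gap exceeded 1 for 14 probes. In all, 540 probes (2.27%) had every Notch-activated array above every other array. H2-D1 was chosen with earlier results of these data known, and its probe was kept through the arrays where it was high. Its rank is therefore a description and not a test. The array's control probe for eGFP, a fluorescent protein used as a reporter in engineered alleles, had a gap of 4.02. Its log2 signal was 9.76 and 10.20 in Notch-activated normal tissue, 9.50 and 9.73 in Notch-activated tumours and at most 5.48 elsewhere. The genes whose signal followed that of H2-D1 most closely over the 12 arrays, out of 5261 named genes, were Srd5a1, a steroid reductase (r = 0.961), Tkt, the transketolase of the pentose phosphate pathway (0.960), Atg101 of the autophagy machinery (0.959), the inositol kinase Ippk (0.956) and the focal adhesion protein Tln2 (0.952). None of these genes lies on chromosome 17. The group means of Srd5a1 were 9.68 and 9.35 in Notch-activated normal tissue and tumours and between 6.96 and 7.62 in the other groups, so it was measured where H2-D1 was not. These correlations are over arrays that share groups and describe the pattern only.

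H2-K1, the other classical heavy chain, was measured on every array and moved the other way. Its log2 signal was 9.79 and 9.72 in wild type normal tissue, 9.54 and 9.73 in Notch-inactivated normal tissue and 8.64 and 8.58 in Notch-activated normal tissue. In tumours it was 8.73 and 8.27 in wild type, 8.44 and 8.63 in Notch-inactivated and 8.24 and 8.02 in Notch-activated mice. Wild type and Notch-inactivated normal tissue were thus high and did not overlap with any other group. The share of all probes that separate groups in this way was not counted, here or for B2m and Psmb8 below. Such a separation is therefore not read as a trait of these genes. Wild type and Notch-inactivated values overlapped within normal tissue, and again within tumours.

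B2m, the light chain shared by all class I molecules, was the brightest of the 4 probes. Its log2 signal was 13.29 and 13.38 in wild type normal tissue, 12.53 and 13.19 in Notch-inactivated normal tissue and 12.32 and 12.25 in Notch-activated normal tissue. In tumours it was 12.49 and 12.36 in wild type, 12.43 and 12.71 in Notch-inactivated and 12.47 and 12.08 in Notch-activated mice. Only wild type normal tissue stood apart from all other groups, and Notch-inactivated normal array 2 lay between it and the rest.

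Psmb8, the immunoproteasome subunit, read 7.61 on both arrays of wild type normal tissue. It read 6.68 and 7.19 in Notch-inactivated and 6.63 and 6.02 in Notch-activated normal tissue. In tumours Psmb8 read 6.20 and 6.06 in wild type, 6.20 and 6.37 in Notch-inactivated and 6.71 and 6.19 in Notch-activated mice. Both wild type normal arrays were above all 10 others, and the Notch-activated groups overlapped with every tumour group. Over the 12 arrays H2-K1, B2m and Psmb8 followed each other (r = 0.867, 0.836 and 0.904 for the pairs H2-K1 and B2m, H2-K1 and Psmb8, B2m and Psmb8), and H2-D1 had r of -0.58, -0.61 and -0.33 with them. The arrays share groups, so these are descriptions.

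In wild type mice H2-K1, B2m and Psmb8 were all lower in tumours than in normal tissue, 3 of the 3 members with a readable difference. The background is high here, since 25.5% of the 23763 probes tested were called lower and 23.2% higher. H2-K1 fell by 1.26 on the log2 scale (SE 0.15, limma, adjusted p = 1.12e-04), a level 2.39-fold lower. B2m fell by 0.92 (SE 0.20, adjusted p = 0.00440) and Psmb8 fell by 1.48 (SE 0.23, adjusted p = 5.82e-04). In bulk tissue fewer cells of a type and less RNA per cell cannot be told apart.

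In Notch-inactivated mice 2 of 3 readable members were called lower in tumours, with 25.4% of all probes called lower and 24.6% higher. H2-K1 fell by 1.10 (SE 0.15, adjusted p = 2.71e-04) and Psmb8 fell by 0.65 (SE 0.23, adjusted p = 0.0404). The Psmb8 call was lost in 9 of 20 alternative settings: without Notch-inactivated normal array 2 it was -0.39 (adjusted p = 0.246), and it was also lost without either Notch-inactivated tumour array (adjusted p = 0.160 and 0.0795) or any 1 of the 4 wild type arrays (adjusted p up to 0.0545). B2m was at -0.29 (SE 0.20, 95% interval -0.75 to 0.17, adjusted p = 0.261) and did not pass. Without Notch-inactivated normal array 1 it was -0.62 and called (adjusted p = 0.0208), and without array 2 it was 0.042 (adjusted p = 0.863).

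In Notch-activated mice 1 of 4 members was called lower in tumours and 0 higher, against 12.7% and 12% of all probes. That member was H2-K1, which fell by 0.48 (SE 0.15, adjusted p = 0.0438), a call lost in 12 of 20 alternative settings. Among these were the fits without any 1 of the 4 Notch-activated arrays, either wild type normal array or either Notch-inactivated tumour array, with differences from -0.59 to -0.37 and adjusted p up to 0.226. B2m was at -0.01 (SE 0.20, 95% interval -0.47 to 0.45, adjusted p = 0.977) and Psmb8 at 0.12 (SE 0.23, 95% interval -0.40 to 0.65, adjusted p = 0.737).

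**Figure D2:**
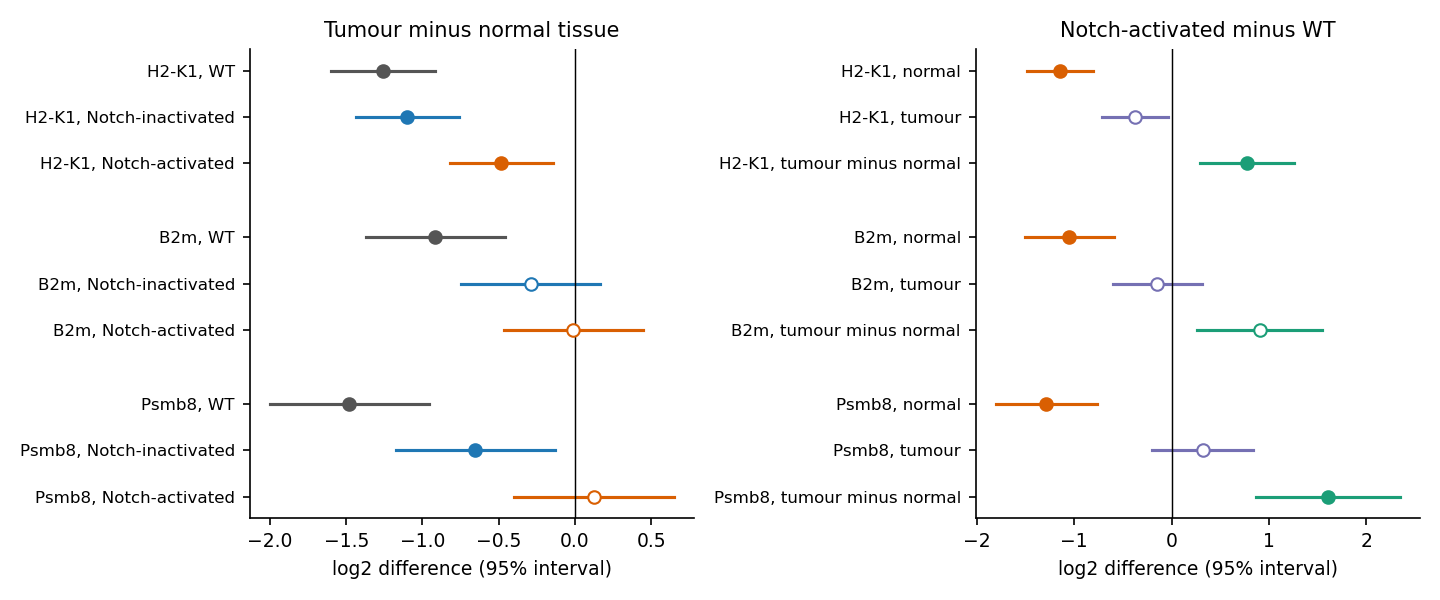
Log2 differences of H2-K1, B2m and Psmb8 with 95% intervals, filled where called at an adjusted p under 0.05. The left panel gives tumour minus normal tissue in each genotype, from -1.48 for Psmb8 in wild type mice to 0.12 for Psmb8 in Notch-activated mice; the right panel gives Notch-activated minus wild type in normal tissue, in tumours, and for the tumour minus normal difference.

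In normal tissue the Notch-activated mice differed from wild type mice in all 4 members, with H2-D1 higher and the other 3 lower. Of all probes, 3.7% were called higher and 4.25% lower in this comparison. H2-K1 fell by 1.15 (SE 0.15, adjusted p = 0.00149), B2m fell by 1.05 (SE 0.20, adjusted p = 0.0118) and Psmb8 fell by 1.29 (SE 0.23, adjusted p = 0.00829). The B2m call was lost without either array of wild type or of Notch-activated normal tissue, with adjusted p from 0.0522 to 0.0813. That of Psmb8 was lost without Notch-activated normal array 2 (-0.98, adjusted p = 0.0697). In tumours only H2-D1 was called higher and 0 of 4 were called lower, against 10.9% and 10.1% of all probes. H2-K1 was at -0.37 (SE 0.15, unadjusted interval -0.71 to -0.03, adjusted p = 0.122), B2m at -0.15 (SE 0.20, adjusted p = 0.709) and Psmb8 at 0.32 (SE 0.23, adjusted p = 0.415).

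The difference between these tumour effects was tested itself. The tumour minus normal difference in Notch-activated mice lay above that in wild type mice by 0.77 for H2-K1 (SE 0.21, adjusted p = 0.0447) and by 1.60 for Psmb8 (SE 0.33, adjusted p = 0.0126), 2 of 3 readable members, with 6.47% of all probes called in this direction and 5.37% in the other. The Psmb8 call held in all 20 alternative settings (adjusted p at most 0.0486), and that of H2-K1 was lost in 13 of them, including the fits without either wild type normal array, wild type tumour array 2, either Notch-inactivated tumour array or any 1 of the 4 Notch-activated arrays (0.55 to 0.89, adjusted p up to 0.151). For B2m it was 0.90 (SE 0.29, 95% interval 0.26 to 1.55, adjusted p = 0.0745). Both comparisons draw on the same wild type normal arrays, whose group mean was the highest for all 3 genes. For H2-K1 these arrays overlapped with Notch-inactivated normal tissue.

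Against Notch-inactivated mice, Notch-activated normal tissue had H2-K1 lower by a log2 difference of -1.03 (SE 0.15, adjusted p = 0.00240) and H2-D1 higher, 1 of 4 members in each direction, with 4.6% of all probes called lower and 4.43% higher. B2m was at -0.57 (adjusted p = 0.120) and Psmb8 at -0.61 (adjusted p = 0.147). In tumours H2-D1 alone was called, with 10.7% of all probes called higher and 10.6% lower, and H2-K1 was at -0.41 (SE 0.15, adjusted p = 0.0898). Without Notch-inactivated normal array 1, B2m in normal tissue was at -0.91 and called as well (adjusted p = 0.0170), and without array 2 it was at -0.24.

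Mib1 deletion gave no call among the members. Notch-inactivated against wild type normal tissue had 0 of 3 readable members called by limma, beside 4.07% of all probes, and 2 at an unadjusted p under 0.05: B2m at -0.48 (SE 0.20, adjusted p = 0.260) and Psmb8 at -0.68 (SE 0.23, adjusted p = 0.156). In tumours 0 of 3 were called and 0 had an unadjusted p under 0.05, beside 0.21% of all probes. The 95% intervals in tumours ran from -0.30 to 0.38 for H2-K1, from -0.31 to 0.60 for B2m and from -0.37 to 0.67 for Psmb8.

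H2-D1 was also set against the other members within each array, as the difference of 2 log2 signals, whose level has no meaning between probes but whose change can be compared between groups. Against wild type, the balance of H2-D1 to H2-K1 was shifted in Notch-activated mice by at least 6.35 log2 units in normal tissue and at least 5.26 in tumours. The corresponding shifts were at least 6.26 and 5.04 against B2m and at least 6.49 and 4.57 against Psmb8, where 1 of the 2 wild type tumour arrays was above background for H2-D1. From normal tissue to tumours within Notch-activated mice the balance moved by 0.16 against H2-K1 (95% interval -0.42 to 0.74, adjusted p = 0.688), by -0.31 against B2m (-0.80 to 0.18, adjusted p = 0.330) and by -0.45 against Psmb8 (-0.98 to 0.09, adjusted p = 0.200). None of these 3 passed.

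The other heavy chain and class I-like genes were read through 10 of 22 listed genes, 12 of which had a probe. In wild type tumours 6 of the 10 fell and 0 rose, with a median log2 difference of -0.68 beside -0.03 over all probes. H2-Bl fell by 2.64 (SE 0.19), H2-T23, the non-classical Qa-1 chain, fell by 1.99 (SE 0.22), H2-Q2, read by the brighter of its probes, fell by 1.35 (SE 0.16) and H2-Q7, the Qa-2 chain, fell by 0.98 (SE 0.17), each with an adjusted p of at most 0.00121. In Notch-inactivated mice 5 fell and 1, the class I-like Mr1, rose (median -0.55 beside -0.01). H2-Bl fell to background there, from 7.86 and 8.16 in normal tissue to 5.51 and 5.54 in tumours. In Notch-activated mice 1 fell, H2-Bl by 0.73 (SE 0.19, adjusted p = 0.0200), and 0 rose (median -0.15 beside -0.02), a count of 0 without any 1 of the 4 Notch-activated arrays and of 2 to 3 without a Notch-inactivated array. The tumour difference was smaller in Notch-activated than in wild type mice by its own test for H2-Bl (1.92, SE 0.26, adjusted p = 0.00223), H2-T23 (1.53, SE 0.32, adjusted p = 0.0128) and H2-Q2 (0.91, SE 0.23, adjusted p = 0.0331).

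The genes that load peptides were represented by 6 of 12. In wild type tumours 3 of 6 fell and 0 rose, with a median of -0.42, beside 25.5% of all probes called lower. Psmb10, a further immunoproteasome subunit, fell by 1.54 (SE 0.24) and Psme2 of the proteasome activator PA28 fell by 0.73 (SE 0.14). Tapbp, the tapasin that bridges class I and the peptide transporter, fell by 0.68 (SE 0.12). In Notch-inactivated mice the same 3 genes fell, by 1.01, by 0.65 and by 0.46, beside 25.4% of all probes called lower. The share called lower in Notch-activated mice was 12.7%. In Notch-activated mice Tapbp was the 1 gene called (-0.37, SE 0.12, adjusted p = 0.0431), a call lost without any 1 of the 4 Notch-activated arrays or of the 4 tumour arrays of the other genotypes. Psme1, the partner of Psme2, had 2 probes at -0.16 and -0.36 in wild type tumours, of which the second was called (adjusted p = 0.0398). Tap1, Tap2, Psmb9 and Nlrc5 were not found by gene number and are not analysed here. The housekeeping proteasome had 4 of 7 measured subunits higher and 0 lower in wild type tumours, beside 23.2% of all probes called higher. Among them were Psmb5, the standard counterpart of Psmb8 (0.61, SE 0.21, adjusted p = 0.0383), and Psma3 (0.56, SE 0.10). In Notch-activated mice 0 of the 7 were called in tumours against normal tissue, beside 12% of all probes called higher and 12.7% lower.

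Of 7 measured transcription regulators of class I genes, 4 fell and 1 rose in wild type tumours. Of all probes, 25.5% were called lower and 23.2% higher there. Irf1 fell by 1.35 (SE 0.29, adjusted p = 0.00324) and Rfxank, part of the RFX complex, fell by 0.54 (SE 0.09). Nfyb, a subunit of the factor that binds the Y box, rose by 0.48 (SE 0.10). In Notch-activated against wild type normal tissue Nfyb fell by 0.40 (SE 0.10, adjusted p = 0.0418). Irf1 read 10.48 and 10.53 in wild type and 9.43 and 9.48 in Notch-activated normal tissue, without passing the test.

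Interferon response genes moved on the same arrays. In wild type tumours 9 of 11 measured genes fell and 0 rose (median -1.27), beside 25.5% of all probes called lower and 23.2% higher. Oas1g fell by 3.28 (SE 0.35), Oas1a fell by 3.06 (SE 0.41), Irf7 fell by 2.80 (SE 0.30) and the GTPase Igtp fell by 1.70 (SE 0.44). In Notch-inactivated mice 5 fell and 1, the chemokine Cxcl9, rose, beside 25.4% of all probes called lower and 24.6% higher. In Notch-activated mice, where H2-K1 was the 1 member called, 0 were called by limma and 1 had an unadjusted p under 0.05. Fewer of all probes were called there too, 12.7% lower and 12% higher. In Notch-activated against wild type normal tissue 9 of 11 fell as well (median -1.36), beside 4.25% of all probes called lower, with Igtp at -2.11 (SE 0.44) and Irf7 at -2.09 (SE 0.30). That count was 3 without either wild type normal array, 2 without Notch-activated normal array 2 and 5 without both arrays with Xist signal. Among the genes most like B2m over the 12 arrays were Igtp (r = 0.945), Irgm2 (0.944), Parp9 (0.941) and Cmtr1 (0.931). Among those most like Psmb8 were Cdh26 (0.952), Parp9 (0.948), Ddx60 (0.934) and Ttll11 (0.932), and the 5 most like H2-K1 were Rundc3b (0.979), Eno3 (0.973), H4c11 (0.948), Cacna2d2 (0.946) and Golim4 (0.946). Parp9 was named for both B2m and Psmb8 and for neither of the heavy chains.

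**Figure D3:**
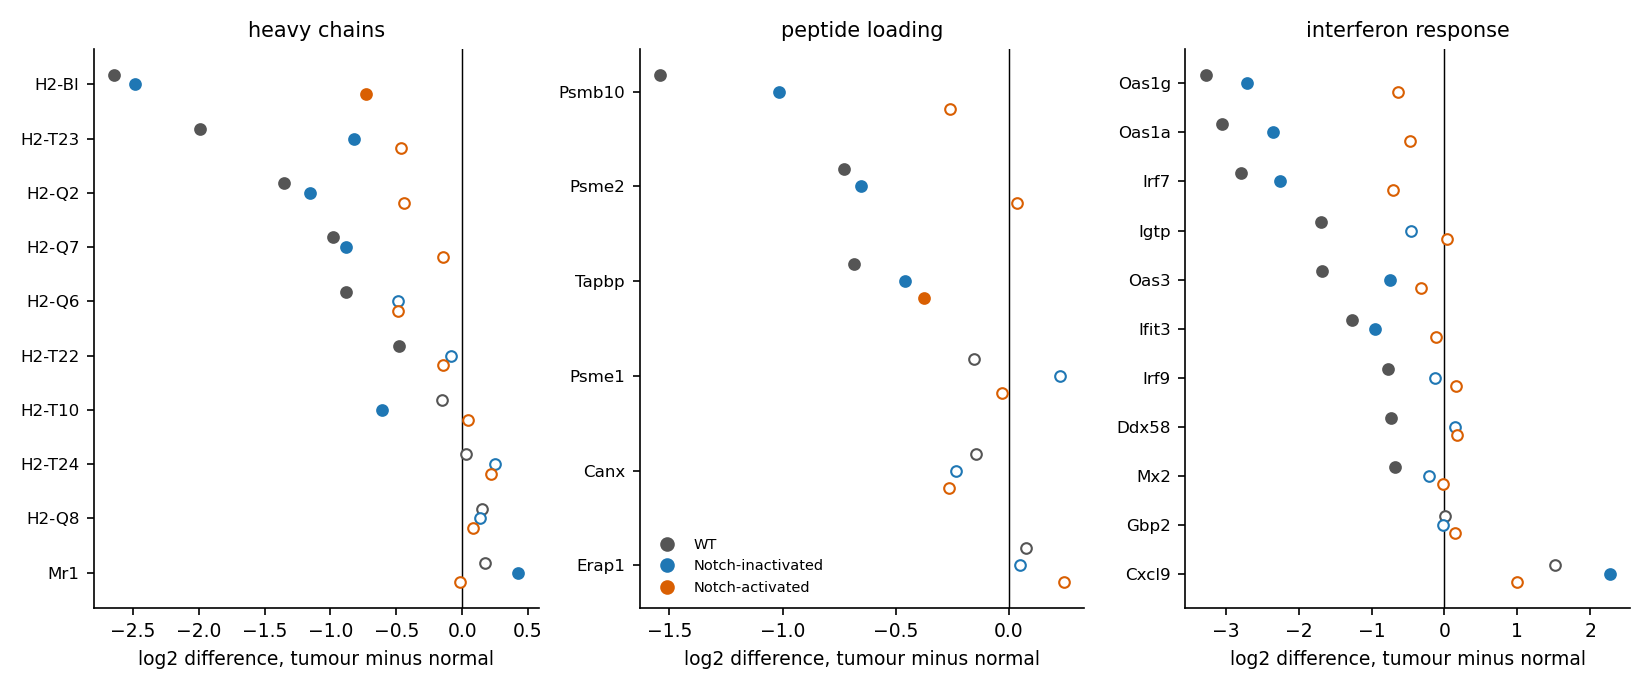
Tumour minus normal log2 differences of each measured heavy chain, peptide loading and interferon response gene in wild type (grey), Notch-inactivated (blue) and Notch-activated mice (orange), filled where called. Wild type points lie furthest to the left for most genes, with H2-Bl at -2.64, Psmb10 at -1.54 and Oas1g at -3.28, and the filled Notch-activated points are H2-Bl and Tapbp.

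Other cell types moved with the tumours. Myeloid genes rose in 7 of 7 measured cases in each genotype, and their summed signal on the log2 scale was 8.38 to 9.25 in normal tissue and 11.64 to 12.93 in tumours. Fibroblast genes rose in 4 of 5 cases in wild type, 5 of 5 in Notch-inactivated and 4 of 5 in Notch-activated tumours, with a summed signal of 8.23 to 8.92 in normal tissue and 11.92 to 13.30 in tumours. Endothelial genes rose in 4 of 4 cases in each genotype, with a summed signal of 7.43 to 7.65 in normal tissue and 9.31 to 9.85 in tumours. Epithelial genes had a summed signal of 14.23 to 14.44 in normal tissue and 13.96 to 14.48 in tumours. Of the 4 measured, 1 was called higher and 1 lower in wild type, 2 lower in Notch-inactivated and 0 in Notch-activated tumours. Of the T and NK cell list 4 of 18 genes had a probe and 1 was kept, Cd3e, which read 5.29 to 5.88, near the background limit, while Cd8b1, Klrk1 and Cd247 were at background on every array. The class II genes, expressed by antigen-presenting cells, rose in tumours where called: Cd74, the invariant chain, by 1.30 in wild type and 1.97 in Notch-inactivated tumours, and it read 10.05 and 8.09 on the Notch-activated tumour arrays. The wild type call was lost in 13 of 20 alternative settings, among them without either array of wild type tumours or of any normal group and without either Notch-inactivated tumour array. The part of these cell types in the fall of H2-K1, B2m and Psmb8 was not tested.

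Strain variants were considered through the neighbours of H2-D1 and through genes known to differ between inbred strains. Among the 30 measured named genes nearest to H2-D1 on chromosome 17, 15 on either side, 3 were higher and 6 lower in Notch-activated than in wild type normal tissue, and 4 higher and 2 lower in tumours. Of all probes, 3.7% were called higher and 4.25% lower in normal tissue, and 10.9% and 10.1% in tumours, so the tumour counts lay near the background. Around H2-K1 1 was higher and 3 were lower in normal tissue, while in tumours 2 were higher and 3 lower, with 13 genes in both windows. Of the lower neighbours of H2-D1 in normal tissue, Psmb8 is a member, and H2-DMb2, H2-T23, H2-Q5 and H2-Q2 are further antigen presentation genes. Psmb8 and H2-DMb2 were also among the 3 lower around H2-K1. These counts are therefore not separate from the results of the members. Near H2-D1, Notch4, a Notch receptor mainly of endothelium, was higher by 1.11 (SE 0.17) and 2.004 (SE 0.17) in the respective tissues, H2-Q6 by 0.99 (SE 0.23) and 1.39 (SE 0.23), and the tRNA synthetase Vars2 by 1.29 (SE 0.23) in normal tissue. The rise of Notch4 in normal tissue was not particular to Notch-activated mice. Notch-inactivated normal tissue was also above wild type, by 0.86 (SE 0.17, limma, adjusted p = 0.0219). H2-DMb2 was lower by a difference of -1.51 (SE 0.38) in normal tissue. H2-Q5 was lower in normal tissue (-0.83, SE 0.15, adjusted p = 0.00846) and higher in tumours (0.63, SE 0.15, adjusted p = 0.0147). In tumours Neu1, a lysosomal sialidase, was lower by a difference of -0.62 (SE 0.17). All of these differences were smaller than that of H2-D1. Whether the H2-D1 probe reads an allele or a copy of the gene was not tested, since probe sequences were not used here.

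The H2-Q2 gene, next to H2-D1 in this order, had 2 probes that disagreed. The dimmer one read 6.92 and 6.77 in Notch-activated normal tissue and 6.31 and 6.13 in Notch-activated tumours, and was at background on all 8 other arrays. It was at least 2.14-fold higher than in wild type normal tissue and at least 1.51-fold higher than in wild type tumours. This probe passed the filter only through the Notch-activated arrays and was picked after its values were seen. No test is therefore given for its rise. The brighter one was lower in Notch-activated normal tissue, at 11.24 and 11.16 beside 11.90 and 11.97 in wild type (-0.74, SE 0.16, adjusted p = 0.0230). H2-T23 also had a pair of probes, which in Notch-activated against wild type tumours were at 0.46 and 0.69, the latter called (adjusted p = 0.00866). Of 8 genes that vary between strains 5 had a probe and 1 was kept, Gbp2b, an interferon-induced GTPase whose expression differs between inbred mice. Gbp2b read 7.81 and 7.03 in Notch-activated normal tissue, 6.02 and 7.37 in Notch-activated tumours, 5.36 and 7.50 in Notch-inactivated tumours, and was at background in the other 3 groups. It was thus above background on all 4 Notch-activated arrays and on 1 array without the transgene, so it too passed the filter only through the Notch-activated arrays. Against wild type Gbp2b was at least 3.19-fold and 2.09-fold higher in normal tissue and tumours (limma, adjusted p of 0.0598 and 0.203). It was called in the average of both tissues (at least 2.59-fold, adjusted p = 0.0202). The probe was kept through the group where it was high, so this call is not separate from that selection. A strain difference was not tested. Because every Notch-activated array carries the transgene, its genetic background and the activity of Notch cannot be told apart for H2-D1 in this design. The same holds for H2-K1, B2m, Psmb8 and every other difference between Notch-activated mice and the other genotypes.

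**Figure D4:**
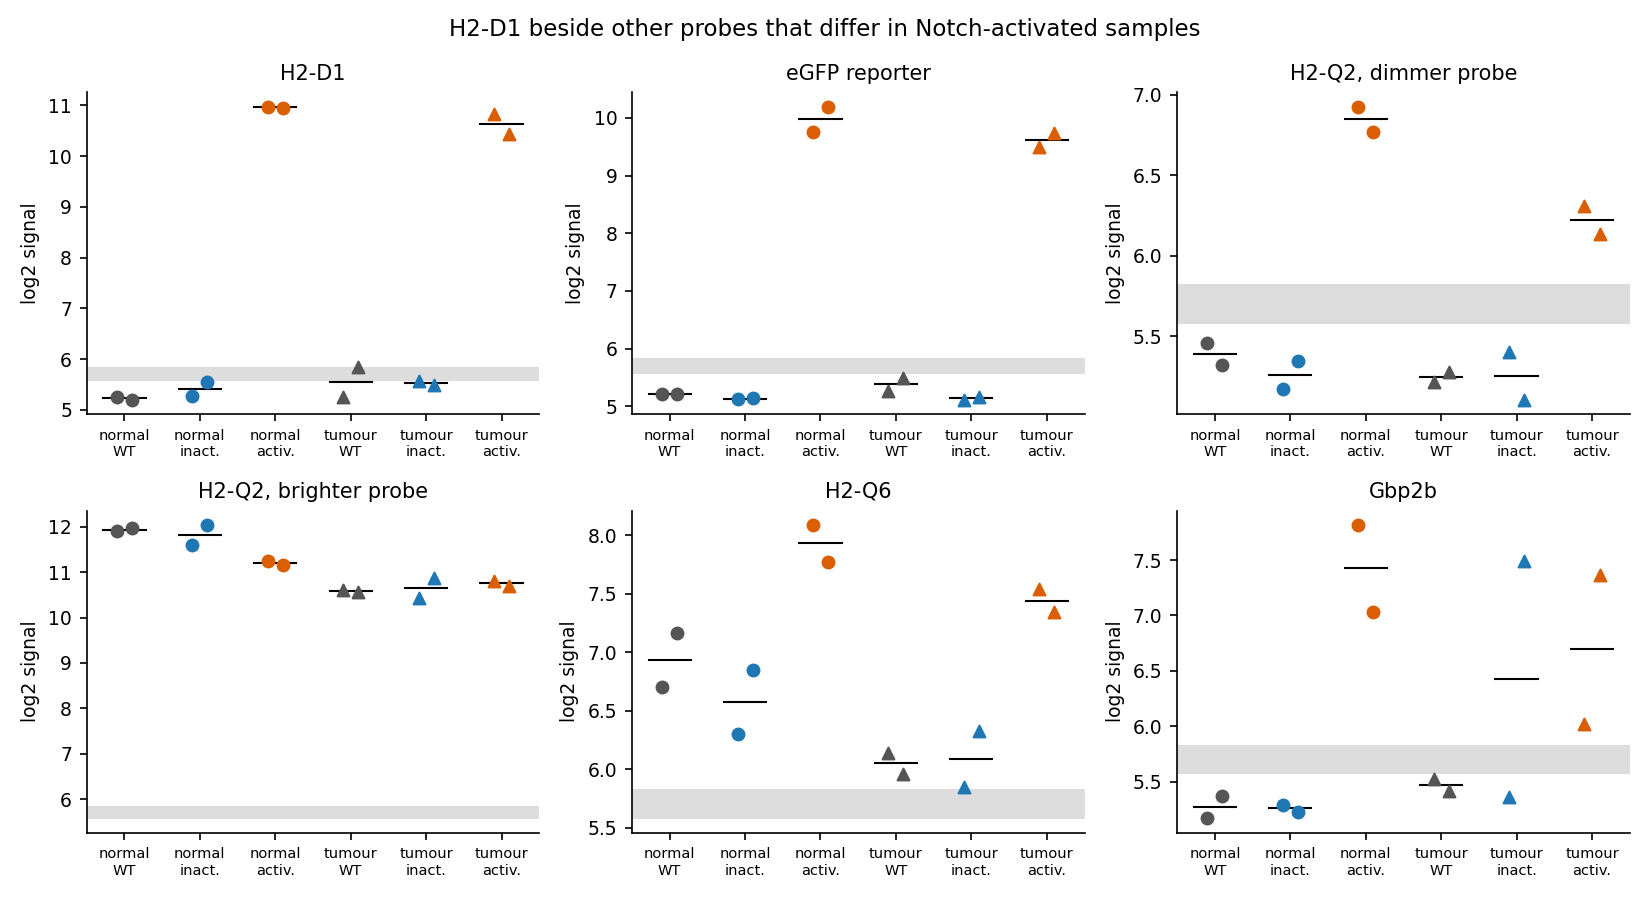
Log2 signal on each array for H2-D1, the eGFP reporter, both probes of H2-Q2, H2-Q6 and Gbp2b, drawn as in the plot of the members by array, with a separate vertical scale in each panel and a grey band at the background limits. H2-D1 and eGFP read 9.50 or more in the Notch-activated groups and at most 5.85 elsewhere; Gbp2b also reads 7.50 on 1 Notch-inactivated tumour array.

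The quality of the arrays was compared by 2 measures. Replicate arrays correlated at r between 0.985 and 0.991 over probes, and between 35.2% and 47.4% of probes lay above background on an array. That share was 43.0% to 47.4% in wild type and Notch-inactivated tumours and at most 40.2% on all other arrays. The background limits were 5.58 to 5.64 in the former and 5.69 to 5.82 in the latter. The part of this in the tumour differences was not tested. Wild type normal array 1 and Notch-inactivated normal array 1 carried Xist (9.88 and 9.42) with the Y-linked Kdm5d and Eif2s3y at background, while the 10 others carried both Y-linked genes, so the replicate arrays of these 2 groups came from different animals. Without those 2 arrays the H2-K1 calls in Notch-activated tumours and for the difference of tumour effects were lost (adjusted p = 0.0597 and 0.113), B2m was called lower in Notch-inactivated tumours (-0.62, adjusted p = 0.0294), and the H2-D1 calls against both other genotypes were kept in both tissues.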

How the data were processed

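The authors deposited 1 table of log2 signals for 12 Illumina bead arrays. Per the labels' protocols, the total RNA was extracted in Trizol and cleaned on RNeasy columns before biotin labelling of cRNA. The deposited log2 values had the same distribution on every array (sorted columns differed by at most 0.000543), and the normalization method is not given in the sources used here; that the scale is log base 2 was taken from the range of the values. A further deposited table, with 24 columns of values tied to no sample, was not used. Probes were named through RefSeq (GRCm38.p6). Over 609 pairs of probes, those sharing a gene number had a median r of 0.59 and those of adjacent numbers -0.05. Probes above the 95th percentile of 54 foreign probes on at least 2 arrays were kept (23763 of 46628). For the tests, limma 3.58.1 under R 4.3.3 fitted 6 group means to all arrays, with Benjamini-Hochberg adjustment over all kept probes within a comparison, and differences were called at an adjusted p under 0.05. The test was tried on simulated data with known changes. Promoters were aligned with Biopython 1.88. Where a gene had several probes, the brightest stood for it. Named genes are the members, up to 4 called genes per list and comparison with the largest difference, fixed pathway genes, the 5 genes most like each member and up to 4 called neighbours. Klrk1, Cd247, Cd8b1 and the further probes of H2-Q2 and H2-T23 were named after their values were seen. The members and gene lists were chosen with earlier results of these data known. Alternatives were cyclic loess, no filter and a stricter filter on dim probes, fits of only the groups compared, a variance trend with robust estimation, the replicate number as a block, means over probes, each array left out and, chosen after seeing the data, both arrays with Xist signal left out. Deviations of arrays with the same replicate number correlated at -0.379 to 0.339, so the numbers were not taken as pairs. The number of arrays limits the precision. The values of 1 gene that these rules name are not reported here.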

Additional observations from a re-analysis of the deposited data

Results flagged for a closer look

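For 2 results the tumour effect differed between genotypes by a test of the difference itself (limma). The tumour minus normal difference of H2-K1 was -0.48 in Notch-activated and -1.26 in wild type mice, a difference of 0.77 (adjusted p = 0.0447). That of Psmb8 was 0.12 and -1.48, a difference of 1.60 (adjusted p = 0.0126). With 2 arrays in a group, no test for a single array far from the others was possible.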

How the results depend on the processing

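Of 1400 values (70 results of the members under 20 alternatives), 1320 kept their direction and side of the threshold, 42 lost the call, 21 gained it and 17 changed sign, none of them a called result; the cause was not tested. Below, T-N is tumour minus normal, WT wild type, NA Notch-activated and NI Notch-inactivated, NA/WT is the first minus the second, and list values are numbers of genes called. With cyclic loess, the values that crossed the threshold, moved or changed sign were H2-K1 -0.46 (T-N, NA, adjusted p = 0.0509), B2m -0.50 (NA/NI, both tissues, adjusted p = 0.03), Psmb8 -0.55 (T-N, NI, adjusted p = 0.07), Psmb8 -0.53 (NA/WT, both tissues, adjusted p = 0.044), peptide loading 0 (T-N, NA), proteasome 1 (NA/WT, tumour). With no filter, the values that crossed the threshold, moved or changed sign were H2-K1 -0.48 (T-N, NA, adjusted p = 0.0505), H2-K1 0.77 (T-N, NA/WT, adjusted p = 0.0541), Psmb8 -0.65 (T-N, NI, adjusted p = 0.0523), class II 0 (T-N, WT). With fits of only the groups compared, the values that crossed the threshold, moved or changed sign were H2-K1 0.77 (T-N, NA/WT, adjusted p = 0.0575), B2m 0.90 (T-N, NA/WT, adjusted p = 0.0204), heavy chains 4 (T-N, NA), proteasome 1 (T-N, NI), class II 4 (T-N, NI), class II 0 (T-N, NA), class II 2 (NA/WT, normal), interferon 1 (T-N, NA). With a variance trend with robust estimation, the values that crossed the threshold, moved or changed sign were B2m -0.43 (NA/NI, both tissues, adjusted p = 0.049), regulators 1 (NA/WT, normal), class II 0 (T-N, WT), class II 0 (T-N, NA), class II 0 (NA/WT, normal). With the replicate number as a block, a pairing the check did not bear out, the values that crossed the threshold, moved or changed sign were H2-K1 -0.48 (T-N, NA, adjusted p = 0.0518), H2-K1 0.77 (T-N, NA/WT, adjusted p = 0.0549), regulators 1 (NA/WT, normal), class II 0 (NA/WT, normal). With both arrays with Xist signal left out, the values that crossed the threshold, moved or changed sign were H2-K1 -0.48 (T-N, NA, adjusted p = 0.0597), H2-K1 0.015 (NI/WT, normal), H2-K1 0.026 (NI/WT, both tissues), H2-K1 0.74 (T-N, NA/WT, adjusted p = 0.113), B2m -0.62 (T-N, NI, adjusted p = 0.0294), B2m 0.95 (T-N, NA/WT, adjusted p = 0.0442), B2m -0.91 (NA/NI, normal, adjusted p = 0.0271), B2m -0.60 (NA/NI, both tissues, adjusted p = 0.0115), heavy chains 2 (T-N, NA), heavy chains 4 (NA/WT, tumour), peptide loading 2 (NA/WT, tumour), regulators 1 (T-N, NI), regulators 1 (NA/WT, normal), proteasome 1 (T-N, NI), class II 0 (T-N, WT), class II 1 (T-N, NI), class II 0 (NA/WT, normal), interferon 2 (T-N, NA), interferon 5 (NA/WT, normal). With means over probes, the values that crossed the threshold, moved or changed sign were heavy chains 2 (T-N, NA), heavy chains 4 (NA/WT, tumour), peptide loading 0 (NA/WT, tumour). With each array left out in turn, the members' values that crossed the threshold or changed sign ranged as follows. The ranges were H2-K1 -0.59 to -0.37 (T-N, NA), H2-K1 -0.19 to 0.26 (NI/WT, tumour, sign changed at -0.19 and -0.06), H2-K1 -0.16 to 0.072 (NI/WT, both tissues, sign changed at 0.0076 and 0.072 and 0.0065), H2-K1 -0.069 to 0.39 (T-N, NI/WT, sign changed at -0.069). Further ranges were H2-K1 -0.60 to -0.14 (NA/WT, tumour), H2-K1 0.55 to 1.002 (T-N, NA/WT), H2-K1 -0.52 to -0.30 (NA/NI, tumour), H2-K1 0.50 to 0.73 (T-N, NA/NI). Further ranges were B2m -0.62 to 0.042 (T-N, NI, sign changed at 0.042), B2m -0.21 to 0.19 (T-N, NA, sign changed at 0.025 and 0.19), B2m -0.33 to 0.00086 (NI/WT, both tissues, sign changed at 0.00086), B2m -1.10 to -1.01 (NA/WT, normal). Further ranges were B2m -0.34 to 0.049 (NA/WT, tumour, sign changed at 0.049), B2m -0.70 to -0.50 (NA/WT, both tissues), B2m 0.71 to 1.10 (T-N, NA/WT), B2m -0.91 to -0.24 (NA/NI, normal). Further ranges were B2m -0.60 to -0.27 (NA/NI, both tissues), B2m -0.053 to 0.61 (T-N, NA/NI, sign changed at -0.053), Psmb8 -0.91 to -0.39 (T-N, NI), Psmb8 -0.18 to 0.43 (T-N, NA, sign changed at -0.18 and -0.14). Further ranges were Psmb8 -1.59 to -0.98 (NA/WT, normal), Psmb8 -0.64 to -0.33 (NA/WT, both tissues), Psmb8 -0.092 to 0.43 (NA/NI, tumour, sign changed at -0.092). For the lists, heavy chains 0 to 3 (T-N, NA), heavy chains 0 to 4 (NA/WT, normal), heavy chains 2 to 4 (NA/WT, tumour), peptide loading 0 to 1 (T-N, NA), peptide loading 0 to 1 (NA/WT, normal), peptide loading 0 to 2 (NA/WT, tumour), regulators 1 to 4 (T-N, NI), regulators 0 to 1 (T-N, NA), regulators 0 to 2 (NA/WT, normal), regulators 1 to 2 (NA/WT, tumour), proteasome 2 to 4 (T-N, WT), proteasome 1 to 3 (T-N, NI). Likewise, proteasome 0 to 1 (T-N, NA), proteasome 0 to 1 (NA/WT, normal), class II 0 to 1 (T-N, WT), class II 1 to 3 (T-N, NI), class II 0 to 5 (T-N, NA), class II 0 to 2 (NA/WT, normal), class II 0 to 3 (NA/WT, tumour), interferon 3 to 6 (T-N, NI), interferon 0 to 2 (T-N, NA), interferon 2 to 9 (NA/WT, normal), interferon 0 to 2 (NA/WT, tumour). The stricter filter moved none of these results. Signals near the background limit, as for H2-D1 outside the Notch-activated groups, give only bounds. A group of 2 arrays leaves 1 array when 1 is left out, and that array is assumed to vary like the others.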
